A study of Mus musculus with 10 samples.

Results

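Open chromatin was examined at 4 genes that encode transcription regulators of the naive pluripotent state, Tfcp2l1, Prdm14, Nr5a2 and Nr0b1. The genes were chosen by name, with earlier results of these data known. The space searched around each was the gene itself plus 30 kb on either side, in the mouse assembly GRCm38.p6 (mm10). Every ATAC-seq peak that shared at least 1 bp with this space was kept. Overlapping peaks of the 10 libraries were merged into elements, which numbered 208851 over the genome. Of these, 73 belonged to the 4 genes, with 18 at Tfcp2l1, 16 at Prdm14, 34 at Nr5a2 and 5 at Nr0b1. The gene table held 49943 genes in all.

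ATAC-seq marks open DNA by the insertion of adapters with a transposase. It was applied to 2 libraries at each of 5 stages, all of strain C57BL/6 x 129 and all under a single batch name. MEF are embryonic fibroblasts that carry M2rtTA, the activator that doxycycline switches on, at ROSA26, and at Col1a1 the polycistronic OKSM cassette, named for OCT4, KLF4, SOX2 and MYC, grown in MEF medium without doxycycline and not sorted. DAY3, DAY6 and DAY9 are the same genotype after 3, 6 and 9 days in ESC medium with 1 µg/ml doxycycline and 50 µg/ml ascorbic acid. DAY3 cells were unsorted, and DAY6 and DAY9 cells were sorted for SSEA1, a surface marker of cells on the way to pluripotency. ESC are the embryonic stem cell line V6.5, unsorted, in ESC medium with LIF and serum on irradiated feeder cells, with no cassette named. Sorting therefore cannot be told apart from DAY6 and DAY9, nor the missing cassette from ESC. The study's design speaks of biological replicates, while the sample labels do not say which cultures the libraries of a stage came from, so p-values measure the spread between these libraries, which may be technical. None of the 4 genes is a factor of the cassette. In such bulk libraries, fewer cells with an open element and less opening per cell cannot be told apart.

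Naive pluripotency is the state of the early epiblast and of mouse embryonic stem cells kept with LIF. TFCP2L1 belongs to the CP2 family of DNA-binding factors and acts downstream of LIF and STAT3 in self-renewal. PRDM14 is a zinc-finger repressor that holds down FGF signalling and DNA methyltransferases, together with its co-repressor CBFA2T2. NR5A2, also called LRH-1, is a nuclear receptor that binds an extended half-site as a monomer, and NR0B1, also called DAX1, is an atypical receptor without the usual DNA-binding domain that binds other receptors, NR5A2 among them. Fibroblasts do not use this network, and its genes are switched on late in reprogramming, after the fibroblast genes have been shut down.

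The sequences before the gene starts are shown because the starts differed in which libraries had a peak over them: all 10 at Tfcp2l1, the DAY9 and ESC libraries at Nr0b1, the DAY6 and DAY9 libraries and ESC replicate 2 at the inner Nr5a2 start, and none at the outer one. RefSeq promoter sequences of build GRCm38.p6 matched 3 of the 4 genes, all but Prdm14, with 2 starts for Nr5a2. Each line gives the 250 bases before a start, 5′ to 3′ on the strand of the gene, and capitals mark matches to the motifs searched.
Tfcp2l1, chr1:118627695-118627944, plus strand: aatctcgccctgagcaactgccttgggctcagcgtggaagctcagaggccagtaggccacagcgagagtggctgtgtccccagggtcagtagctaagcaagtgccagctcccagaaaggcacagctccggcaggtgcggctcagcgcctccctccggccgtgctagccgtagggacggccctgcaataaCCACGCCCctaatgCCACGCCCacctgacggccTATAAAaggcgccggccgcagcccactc
Nr5a2 outer start, chr1:136960449-136960698, minus strand: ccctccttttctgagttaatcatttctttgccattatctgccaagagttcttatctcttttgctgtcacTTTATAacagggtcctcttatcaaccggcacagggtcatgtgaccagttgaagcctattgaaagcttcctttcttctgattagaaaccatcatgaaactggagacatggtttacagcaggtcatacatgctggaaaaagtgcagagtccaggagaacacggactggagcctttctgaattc
Nr5a2 inner start, chr1:136953631-136953880, minus strand: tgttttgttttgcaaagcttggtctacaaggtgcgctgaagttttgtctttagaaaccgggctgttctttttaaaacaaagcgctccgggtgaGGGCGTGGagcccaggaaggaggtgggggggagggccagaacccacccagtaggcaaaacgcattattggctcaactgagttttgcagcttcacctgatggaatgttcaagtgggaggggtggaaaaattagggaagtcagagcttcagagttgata
Nr0b1, chrX:86191525-86191774, plus strand: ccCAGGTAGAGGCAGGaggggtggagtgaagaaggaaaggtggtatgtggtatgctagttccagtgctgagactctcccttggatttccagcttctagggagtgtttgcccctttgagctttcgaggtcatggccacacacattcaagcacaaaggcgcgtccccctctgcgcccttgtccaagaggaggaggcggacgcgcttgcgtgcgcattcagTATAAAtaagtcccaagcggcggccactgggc

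Consensus cores of 8 motifs were searched on both strands. The KLF core GGGNGTGG, to which KLF4 of the cassette binds, occurred 2 times before the Tfcp2l1 start, with first bases 61 and 47 bases before it, and 1 time before the inner Nr5a2 start, 157 bases before it. It occurred in 15.9% of all 32817 promoter windows of this length. The CP2 core, which is CCNG, any 6 bases and CCNG again and is the kind of site that TFCP2L1 binds, was found in Nr0b1 alone among these windows, and in 24.9% of all. The letters TATAAA lay 28 bases before the Tfcp2l1 start and 32 bases before the Nr0b1 start, against 12.4% of all windows with a match anywhere, and the outer Nr5a2 window held them 181 bases before its start on the other strand. The octamer ATGCAAAT (1.6% of all windows), the SOX core CATTGTT (3.29%), the NR5A and ESRR half-site AAGGTCA (4.08%), the PRDM14 core GGTCTCTAA (0.241%) and the AP-1 core TGANTCA (6.75%) are not among the letters of these windows. No match overlapped another. GC content was 65.2% before Tfcp2l1, 57.2% before Nr0b1, 49.6% and 43.2% before the inner and outer Nr5a2 start, with a median of 52.4% over all windows.

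The lists held between 45497 (DAY3) and 88980 (ESC) peaks, and the background pileup recovered from them, a measure of relative depth, lay between 2.33 (DAY6 replicate 2) and 8.32 (MEF replicate 2). Peaks with a score of 50 to 60, the lowest scores in the lists, had a median fold over local background of 2.57 to 3.61 per library, so weaker openings could go unlisted. The DAY3 libraries differed from each other by a noise ratio (the variance between their peak pileups over that of counting) of 1.33 and the DAY9 libraries by 1.42, where counting alone gives 1, against 3.61 to 8.11 for the other pairs of replicates. The libraries of DAY3, and likewise of DAY9, were therefore treated as a single sample by their mean, so that 8 samples entered the tests. As a check of the labels, peaks within 1 kb of the start in both libraries were found for 10 of 10 fibroblast genes in MEF, 6 at DAY3, 6 at DAY6, 4 at DAY9 and 6 at ESC, and for 2 of 10 pluripotency genes in MEF, 2 at DAY3, 7 at DAY6, 9 at DAY9 and 10 at ESC. The 2 pluripotency genes in MEF and at DAY3 were Pou5f1, which encodes OCT4, and Sox2. Both are factors of the cassette, and the part of the cassette in these peaks was not tested. Prrx1 and Pdgfrb had such peaks in ESC and not at DAY9, and Postn, Twist2, Col3a1 and Thy1 had none in either. The part of feeder fibroblasts in the results was not tested. Of 5 primitive endoderm genes, 1 had such peaks in MEF, DAY3 and DAY6, 2 at DAY9 and 3 at ESC, and of 5 trophoblast genes 3 at MEF, 2 at DAY3 and DAY6, 4 at DAY9 and 5 at ESC. These marker counts were not set beside the share of all genes with such peaks, and the ESC lists were the longest.

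All 4 genes had few or no peaks in MEF and the most in ESC, and they differed in when peaks appeared. Tfcp2l1 had 3 and 4 peaks in the MEF libraries, 5 and 4 at DAY3, 4 and 5 at DAY6, 5 and 7 at DAY9, and 12 and 11 at ESC. Each stage up to DAY9 overlapped with the one before it, and both ESC libraries lay above all others. Prdm14 had 1 and 0 peaks in MEF, 1 and 0 at DAY3, 6 and 5 at DAY6, 9 and 7 at DAY9, and 10 in each ESC library. MEF and DAY3 were the same for this gene, and each later stage lay above the one before. Nr5a2 had 2 and 1 peaks in MEF, 0 and 2 at DAY3, 7 and 4 at DAY6, 12 and 13 at DAY9, and 17 and 12 at ESC. DAY9 and ESC overlapped at Nr5a2, and both lay above DAY6. Nr0b1 had no peak in any MEF or DAY3 library, 2 in each DAY6 library, 3 and 2 at DAY9, and 4 and 5 at ESC. DAY6 and DAY9 overlapped here, and ESC lay above them.

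**Figure D1:**
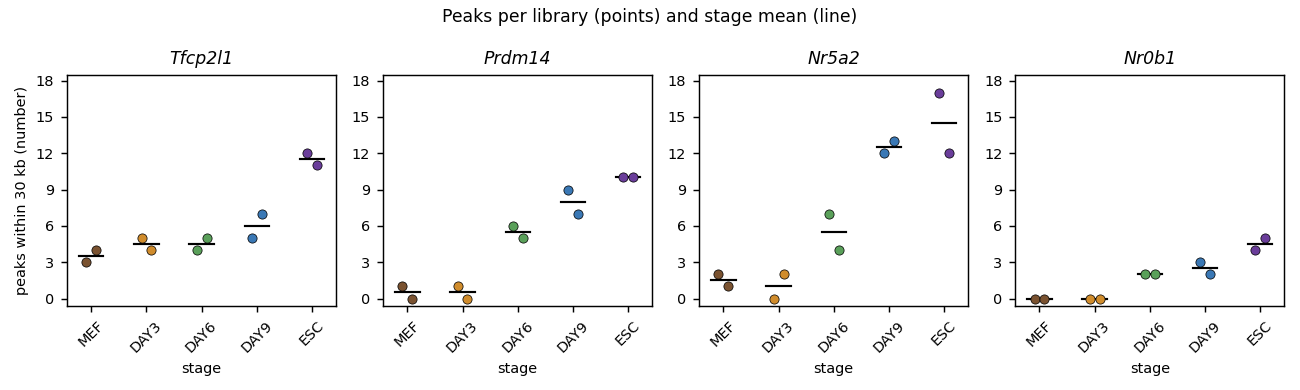
Number of ATAC-seq peaks within 30 kb of each gene (vertical axis) at the 5 stages, with 1 point per library and a line at the mean of the 2 libraries. Prdm14 goes from 0 or 1 peaks at DAY3 to 5 and 6 at DAY6, whereas Tfcp2l1 stays between 3 and 7 until DAY9 and is at 11 and 12 at ESC.

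The mean of ESC minus that of MEF was 8 peaks at Tfcp2l1, 9.5 at Prdm14, 13 at Nr5a2 and 4.5 at Nr0b1, against a median of 0.5 over the 47481 genes with any peak. The order of the stages was tested for each of those genes with the exact Jonckheere-Terpstra permutation test, two-sided, over 5040 assignments of the 8 samples. The p-value was 0.00317 for Tfcp2l1, 0.00159 for Prdm14, 0.00833 for Nr5a2 and 0.00119 for Nr0b1, and the Benjamini-Hochberg adjusted value over all genes was 0.0951, 0.0929, 0.123 and 0.082 in that order (exact permutation test). None of the 4 passed the threshold of 0.05, and none of the 47481 genes did (0% called), with 0.082 the smallest adjusted value. The smallest exact permutation p-value that 8 samples allow, 0.000397, was reached by 177 genes (0.373%). At an unadjusted p under 0.05, 17.8% of all genes had a trend towards more peaks and 2.59% towards fewer, and the 4 genes were among the former. Counted as 10 separate libraries, as the labels have them, the adjusted exact permutation p-value was 0.0331 for Tfcp2l1, 0.0229 for Prdm14, 0.0362 for Nr5a2 and 0.0229 for Nr0b1, and 6.51% of all genes were called in that direction and 0.531% in the other. With the replicate number as a block over the same 10 libraries, the adjusted exact permutation p-values were 0.0755, 0.0568, 0.0888 and 0.0655 in that order, and no gene was called. Counted as base pairs under peaks, Tfcp2l1 alone of the 4 passed, with 4199 bp more in ESC and an adjusted exact permutation p-value of 0.0343, and 1.05% of all genes were called in that direction and 0.107% in the other. List length also moved with stage. With every list cut to its 45497 best peaks, the differences were 5.5, 4.5, 5 and 4 peaks in the same order, with unadjusted exact permutation p-values of 0.0226, 0.0131, 0.00992 and 0.00476. The adjusted exact permutation p-values were 0.218, 0.177, 0.168 and 0.141, and no gene was called.

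An element was called newly open if no MEF library had a peak in it and both libraries of a later stage did, and it was dated by the earliest such stage. By this rule 38 of the 73 elements were newly open (52.1%, against 28.9% of the whole atlas), namely 9 of 18 at Tfcp2l1, 9 of 16 at Prdm14, 16 of 34 at Nr5a2 and 4 of 5 at Nr0b1. DAY3 was the date of 3 elements, all at Tfcp2l1 (4.11% of the 73, against 5.43% of the atlas). DAY6 was the date of 8 (11%, against 5.59%), with 4 at Prdm14, 2 at Nr5a2 and 2 at Nr0b1. DAY9 was the date of 11 (15.1%, against 8.16%), with 8 at Nr5a2, 2 at Prdm14 and 1 at Tfcp2l1. ESC was the date of 16 (21.9%, against 9.71%), with 6 at Nr5a2, 5 at Tfcp2l1, 3 at Prdm14 and 2 at Nr0b1. A two-sided exact permutation of 2 libraries against 2 cannot give a p-value below 0.333, and no test was run on these counts. Tfcp2l1 had no element dated to DAY6, and Prdm14, Nr5a2 and Nr0b1 had none dated to DAY3, though without DAY3 replicate 2 there was 1 at Prdm14 and without DAY3 replicate 1 there was 1 at Nr5a2. The number dated to DAY6 at Tfcp2l1 was 1 without DAY6 replicate 1, 1 when peaks had to cover 50% of an element, and 2 with the top 50% of each list. With lists of equal length the newly open elements numbered 6 at Tfcp2l1, 6 at Prdm14, 4 at Nr5a2 and 4 at Nr0b1. Of these, 2, 0, 0 and 3 in that order were dated to ESC, against 5, 3, 6 and 2 with the full lists. The number dated to ESC thus depended on list length, and the ESC lists were the longest. The atlas share newly open with lists of equal length was not computed. Whether the share at the 4 genes stays above it with such lists was therefore not tested.

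**Figure D2:**
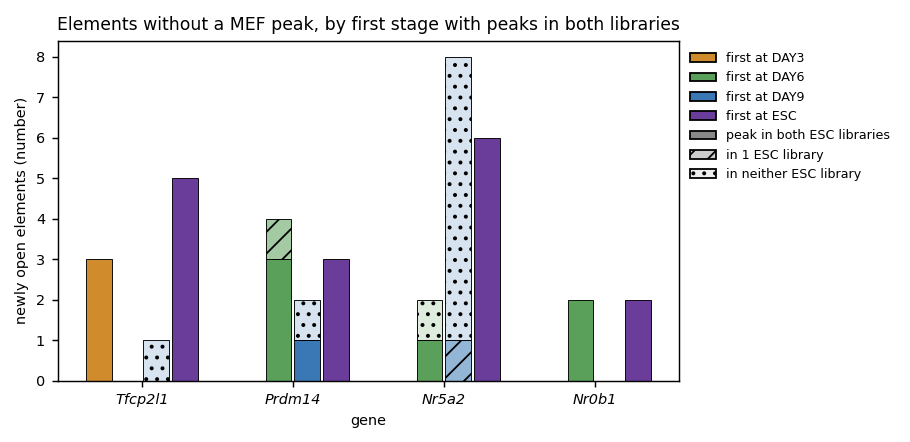
Number of newly open elements (vertical axis) per gene, with a bar for the earliest stage at which both libraries had a peak. Solid fill stands for elements with a peak in both ESC libraries, hatching for 1 ESC library and dots for neither, and 7 of the 8 elements that opened at DAY9 at Nr5a2 are dotted.

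Of the 22 elements that opened before ESC, 10 had peaks in both ESC libraries (45.5%, against 32.4% of the atlas). These were 3 of 4 at Tfcp2l1, 4 of 6 at Prdm14, 1 of 10 at Nr5a2 and 2 of 2 at Nr0b1. By date, the share of the atlas with peaks in both ESC libraries was 25.5% for elements dated to DAY3, 41.8% for DAY6 and 30.6% for DAY9. Of the 16 newly open elements of Nr5a2, 14 lay inside the gene, as did 6 of 9 at Tfcp2l1 and 2 of 4 at Nr0b1, whereas none of the 9 at Prdm14 did. Of all elements, newly open or not, 28 of 34 lay inside Nr5a2, 12 of 18 inside Tfcp2l1, 3 of 16 inside Prdm14 and 2 of 5 inside Nr0b1, and Nr5a2 and Tfcp2l1 are the longer genes. The 38 elements had a median width of 675 bp, and all 73 a median of 483 bp. A peak in a single library was the only evidence for 26 of the 73 (35.6%, against 37.9% of the atlas). In all, 29 elements had peaks in both libraries of no stage, among them 16 at Nr5a2, a count for which the atlas share is not given.

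**Figure D3:**
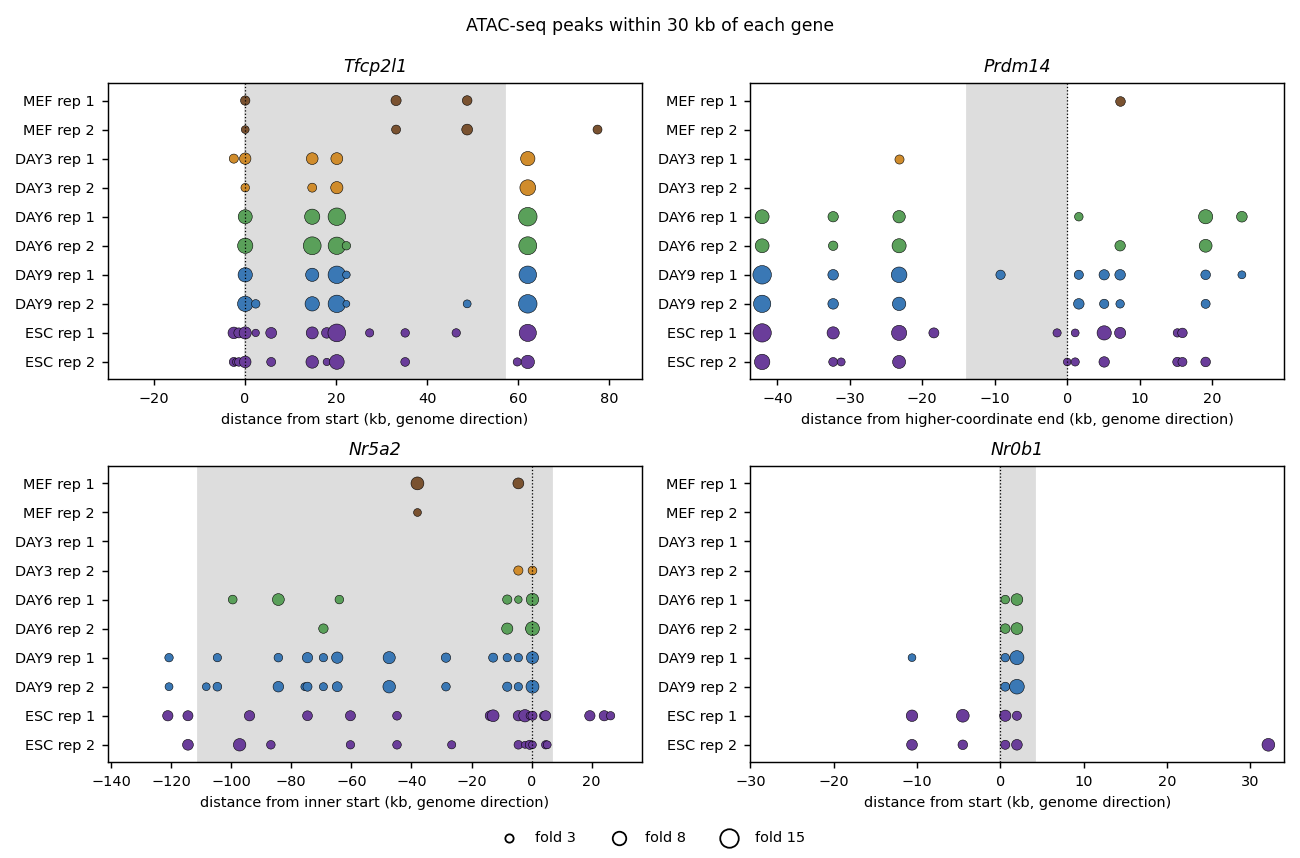
Position of each peak within 30 kb of the gene, as the distance in kb from the point named under each axis (horizontal), in each of the 10 libraries (rows). This point is the upper end of the gene for Prdm14, the inner start for Nr5a2 and the start for Tfcp2l1 and Nr0b1. The circle area is set by the fold, and grey marks the gene body. Distal columns of large circles at Tfcp2l1 begin at DAY3, columns with both libraries at Prdm14 and Nr0b1 begin at DAY6, and Nr5a2 has largely different columns at DAY9 and in ESC.

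At Tfcp2l1 the start had a peak at every stage in the full lists, and 3 strong distal elements were open from DAY3 on. The start, on chromosome 1 at 118627945, lay in an element (chr1:118627622-118628542) that was the only one of the 73 with a peak in all 10 libraries. The authors' fold there, which is the height of a peak over its local background, was 3.85 and 2.68 at MEF, 5.71 and 3.19 at DAY3, 8.63 and 10.2 at DAY6, 8.95 and 10.3 at DAY9, and 6.48 and 5.91 at ESC. By fold, MEF and DAY3 overlapped, and DAY6 and DAY9 were the highest. By rank within each list, in percent counted from the strongest peak, ESC (11.9% and 15.9%) lay above DAY6 (22.3% and 20.4%). ESC and DAY9 (17.9% and 13.6%) overlapped in rank. The MEF peaks ranked at 79.8% and 86.5%, and cutting the lists to equal length removed them. With those lists, 4 elements of Tfcp2l1 were dated to DAY3 instead of 3. Both KLF matches shown above lie within the element at the start.

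The first distal element lay beyond the far end of the gene, 62.1 kb from the start (chr1:118689641-118690425). It had no MEF peak, and its fold was 8.96 and 10.9 at DAY3, 15.1 and 14.1 at DAY6, 13.5 and 15 at DAY9, and 12.9 and 7.86 at ESC. The second lay inside the gene, 20.2 kb from the start (chr1:118647769-118648582). Its fold was 6.19 and 6.54 at DAY3, 13.4 and 13.2 at DAY6, 13.4 and 13.3 at DAY9, and 13.8 and 9.51 at ESC, so that DAY3 lay below all later libraries. The third, also inside, was 14.8 kb from the start (chr1:118642268-118643241). Its fold was 6.03 and 3.51 at DAY3, 10.1 and 13.9 at DAY6, 7.62 and 8.98 at DAY9, and 6.29 and 6.89 at ESC. DAY6 was highest by fold, while by rank DAY6 (16.9% and 11.2%) and ESC (16.7% and 12.4%) overlapped. These folds come from lists of different depth and are given as a description.

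The 5 Tfcp2l1 elements dated to ESC were weaker than these 3 in the same libraries, with folds of 3.18 to 5.92 at ESC replicate 1 and 2.37 to 3.63 in replicate 2. The nearest lay 1.3 kb before the start and the farthest 35.2 kb into the gene, and 1 of them had a peak in DAY3 replicate 1 too, with a fold of 3.65. In the opposite direction, 2 of the 18 elements, both inside the gene, had peaks in both MEF libraries and no listed peak in ESC. The one named by the rule (chr1:118676514-118676971) had a fold of 4.08 and 5.15 at MEF and 2.75 at DAY9 replicate 2, and no other peak. Another element inside the gene (chr1:118649899-118650571) had peaks in both DAY9 libraries, with folds of 2.55 and 2.06, and in DAY6 replicate 2, with 3.14, and none in MEF or ESC. Over the atlas, 11.1% of elements were open in both MEF libraries and in neither ESC library, and the 2 of 18 at Tfcp2l1 are near that share.

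At Prdm14 the newly open elements lay outside the gene, on both sides, and neither end of the gene was under a peak in both libraries of any stage. The upper end of the gene, at 13127163 on chromosome 1, was covered by a peak in ESC replicate 2 alone, with a fold of 2.58 (chr1:13126828-13127525), and a separate element within 1 kb above it (chr1:13127978-13128459) had folds of 2.7 and 2.96 at ESC and no other peak. The strongest element lay 28.3 kb below the lower end (chr1:13084581-13085609). It had no peak in MEF or DAY3, and its fold was 8.53 and 8.45 at DAY6, 15 and 13.1 at DAY9, and 14.7 and 10.4 at ESC. By fold, DAY6 lay below DAY9 and ESC, which overlapped. By rank, ESC (1.68% and 4.05%) lay above DAY9 (6.15% and 7.66%). The next lay 9.4 kb below the lower end, in the long noncoding RNA gene Gm39592 (chr1:13103436-13104578). Its fold was 3.65 at DAY3 replicate 1 with no peak in replicate 2. The fold was 6.74 and 8.72 at DAY6, 10.7 and 7.88 at DAY9, and 10.1 and 7.44 at ESC. DAY6, DAY9 and ESC overlapped by fold. By rank, ESC (11.8% and 19.8%) lay above DAY9 (20% and 28.2%), and DAY9 lay above DAY6 (40% and 32.4%).

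The other DAY6 elements of Prdm14 were a second one in Gm39592 (chr1:13094447-13095348) and one in Ncoa2, the neighbouring gene for a nuclear receptor coactivator (chr1:13145797-13146738). The first of these had folds of 4.72 and 3.91 at DAY6, 4.92 and 4.9 at DAY9, and 6.53 and 3.45 at ESC. The Ncoa2 element had 8.83 and 7.26 at DAY6, 4.08 and 3.58 at DAY9, and 4.07 at ESC replicate 2 alone, so it was highest at DAY6. At DAY9 an element 5.1 kb above the upper end joined them (chr1:13131957-13132520), with folds of 4.65 and 3.76 at DAY9 and 8.89 and 4.8 at ESC. An element 1.6 kb above that end (chr1:13128568-13129024) had peaks in DAY6 replicate 1, with a fold of 3.22, and in DAY9, with 3.69 and 4.89, and none in MEF, DAY3 or ESC. The only MEF peak near Prdm14 had a fold of 4.08, in replicate 1 (chr1:13134241-13134689). Since 30 kb reaches into Gm39592 and Ncoa2, these elements belong to the space around Prdm14 and are not assigned to it. The count of newly open elements was 4 with 10 kb searched on either side and 17 with 100 kb.

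At Nr5a2 the inner start was open by DAY6, the outer start had a peak in no library, and most elements that opened at DAY9 had no peak in ESC. The annotation gives an outer start at 136960448 and an inner start at 136953630 on chromosome 1. No library had a peak within 1 kb of the outer start. The element at the inner start (chr1:136953447-136954500) had no MEF peak, a fold of 3.35 at DAY3 replicate 2 and none in replicate 1, 6.77 and 8.41 at DAY6, 6.49 and 7.34 at DAY9, and 3.66 and 2.65 at ESC. The DAY6 and DAY9 folds overlapped each other and lay above those of ESC and DAY3. The start base itself was under a peak in both DAY6 libraries, both DAY9 libraries and ESC replicate 2.

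Next to it, 2 elements inside the gene were dated to ESC. The one at chr1:136951143-136951751 had folds of 6.69 and 2.13 at ESC and no other peak. The one at chr1:136952641-136953329 had folds of 2.4 and 3.65 at ESC and 2.74 at DAY6 replicate 2. Elements with peaks in both libraries of an intermediate stage but none in MEF or ESC made up 8 of 34 (23.5%), against 9.61% of the atlas. All 8 had peaks in both DAY9 libraries, 7 were dated to DAY9 and 1 to DAY6. The strongest lay inside the gene (chr1:136905850-136906661), with folds of 6.45 and 6.89 at DAY9 and no other peak. The one dated to DAY6 (chr1:136945331-136945780) had 3.78 and 5.49 at DAY6 and 3.02 and 3.74 at DAY9. Over the 8 elements dated to DAY9, the median fold was 3.54 and 3.47 in the DAY9 libraries, against 2.76 and 2.75 for the lowest-scoring peaks of those lists. In the ESC lists the lowest-scoring peaks had a median fold of 3.35 and 2.94. Openings as weak as many of these elements could therefore go unlisted in ESC, and a missing ESC peak does not show that an element was closed. With lists of equal length the transient count was 3, the newly open count 4 instead of 16, and none of these 4 was open in both ESC libraries. The atlas shares for such lists were not computed.

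An Nr5a2 element inside the gene (chr1:136915381-136915863) was open in MEF alone, with folds of 7.25 and 2.68. A peak in only 1 of the ESC libraries was found at 13 of 34 elements of Nr5a2, 6 of 16 of Prdm14, 5 of 18 of Tfcp2l1 and 1 of 5 of Nr0b1, so Nr5a2 and Prdm14 were alike in this. The share of the whole atlas is not given for this count. Without ESC replicate 2 the newly open elements of Nr5a2 numbered 24, and without ESC replicate 1 they numbered 20.

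At Nr0b1, on chromosome X, 2 elements inside the gene were dated to DAY6 and 2 elements before it to ESC. The element at the start (chrX:86191486-86193173) had no peak in MEF or DAY3. Its fold was 3.26 and 4.05 at DAY6, 3.11 and 3.53 at DAY9, and 5.56 and 3.63 at ESC. By fold, DAY6 overlapped with both later stages, while DAY9 lay just below ESC. By rank, DAY6 (73% and 68.4%) lay below DAY9 (60.5% and 53.2%) and ESC (34% and 46%). With lists of equal length, 1 element of Nr0b1 was dated to DAY6 and 3 to ESC, against 2 and 2 with the full lists. The start base, at 86191775, was under a peak in the DAY9 and ESC libraries and not in those of DAY6. The element 2 kb into the gene (chrX:86193234-86194274) had folds of 5.99 and 6.07 at DAY6, 8.58 and 9.44 at DAY9, and 3.68 and 5 at ESC. By fold, DAY9 was highest and ESC lowest there, with no overlap between the 3 stages. By rank, DAY9 (17.9% and 16.4%) was also highest, while DAY6 (32.3% and 40.1%) and ESC (60.6% and 27.7%) overlapped. The elements before the start lay 4.5 kb from it (chrX:86186877-86187652), with folds of 7.16 and 4.06 at ESC and no other peak, and 10.6 kb from it (chrX:86180847-86181601), with 5.8 and 5.11 at ESC and 2.64 at DAY9 replicate 1. The 5th element (chrX:86223687-86224239) had a peak in ESC replicate 2 alone, with a fold of 7.12. No peak within 30 kb in either MEF library was shared by 12.1% of the 21887 protein-coding genes. In addition, 1.8% had at least 2 newly open elements with peaks in both ESC libraries. Nr0b1 has 4 such elements, and the share of genes without MEF peaks that have as many was not computed.

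**Figure D4:**
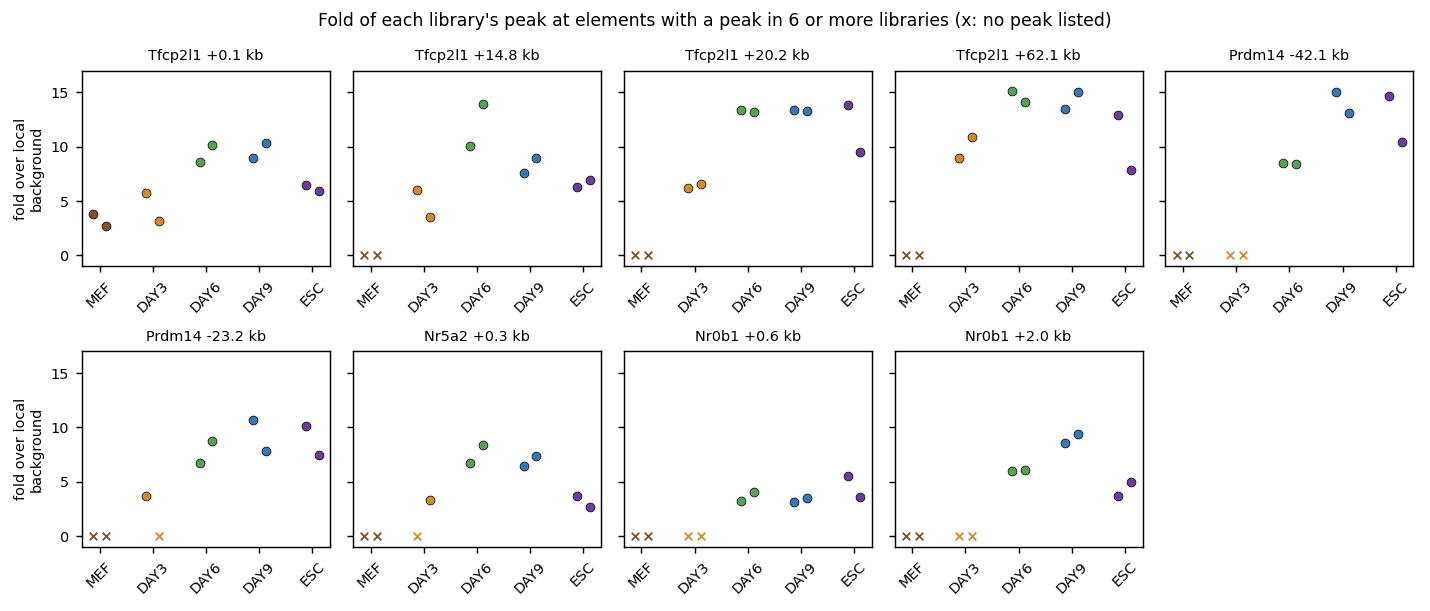
Fold over local background (vertical axis) of the peak of each library (points, 2 per stage; a cross at 0 means no peak listed) at the named elements with a peak in 6 or more libraries. Titles give the gene and the distance in kb from the point used in the map of peaks, which for Prdm14 is the upper end of the gene. The Tfcp2l1 elements have DAY3 peaks that lie below those of DAY6, and the Nr5a2 start and the element 2 kb into Nr0b1 are lower in ESC than in DAY9.

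Ranked among 21887 protein-coding genes, at least as many newly open elements were found at 1.22% of genes as at Nr5a2, at 5.69% as at Tfcp2l1 or Prdm14, and at 32.7% as at Nr0b1. These ranks favour long genes, since the space searched grows with the gene, and Nr5a2 is 117887 bp long and Nr0b1 4173 bp. Counting only elements with peaks in both ESC libraries, the shares were 2.01% for Tfcp2l1, 2.99% for Prdm14 and Nr5a2, and 12.7% for Nr0b1.

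The protein-coding genes whose peak counts over the 8 samples were most like those of each gene were found by Pearson correlation, as a description of vectors that share list length and depth. For Tfcp2l1 these were Elavl1, Zfp42 and Zfp870, each with r = 0.985 among 9613 genes searched. Zfp42, also called Rex1 and a marker of naive cells, had 0 and 1 peaks in MEF and 13 and 12 at ESC. For Prdm14 they were Klhl20 (r = 0.996), Gdf3 (0.995) and Tk2 (0.992) among 8913 genes. Gdf3, which encodes a TGF-beta family ligand, had 5 peaks in each MEF library and 11 in each ESC library. For Nr5a2 they were Gsta2 (0.989), Aebp2 (0.987) and Dppa5a (0.985) among 2943 genes, and the spaces searched around Gsta2 and Dppa5a overlap. For Nr0b1 they were Gm6871 and Pate11 (both 0.996) and Scml2 (0.992) among 16671 genes.

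Of 16 other naive and core pluripotency genes, 14 had more peaks in ESC than in MEF on average and 2 had fewer, with a median difference of 5.75 peaks. Over all genes, 28861 of 47481 had more and 13995 fewer, with a median of 0.5. None passed the adjusted test (exact Jonckheere-Terpstra permutation test), as no gene did. Esrrb, an orphan nuclear receptor, had 5 and 6 peaks in MEF, 1 and 2 at DAY3, 9 and 6 at DAY6, 11 and 8 at DAY9, and 24 and 19 at ESC. Zfp42 differed by 12 peaks, Fgf4, the ligand of the pathway that PRDM14 restrains, by 10.5, and Nanog, a core homeodomain factor, by 10. The genes with fewer, named after their values were seen, were Klf4 (-0.5) and Stat3 (-1.5), the effector of LIF.

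Of 10 partners and targets of PRDM14, 6 had more peaks in ESC and 2 fewer, with a median difference of 1.25, a share with more peaks that is near that of all genes (28861 of 47481). Tet2, a 5-methylcytosine oxidase, differed by 16.5 and Tet1 by 8.5, whereas Dnmt3l differed by 2.5 and Dnmt3b, a DNA methyltransferase gene, by 2. The genes with fewer were Ezh2 and Fgfr2, each with -0.5, named after their values were seen. Of 9 formative and primed genes, 6 had more and 3 fewer, with a median of 2, which is also near the share of all genes. Lef1 differed by 16 peaks, Foxd3 by 9.5, Otx2 by 6 and Zic2 by 4.5. Fgf5, a marker of the primed state, differed by -2, Pou3f1 by -1.5 and T by -0.5, named after their values were seen. No gene of these lists passed the adjusted test (exact permutation test).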

How the data were processed

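ATAC-seq peak lists of 10 libraries were analysed. The submitters' processing notes name Bowtie2 2.3.2, MACS2 2.1.1, deepTools 2.3.6 and the build mm10, with no roles; read filters and the transposase offset are not given in the sources used here. Each deposited list gives, per peak, a score, a fold over local background (a ratio) and −log10 p-values and q-values as the authors' caller wrote them. Peaks of all libraries that shared at least 1 bp were merged into elements, and genes and promoters came from RefSeq tables of GRCm38.p6. Relative depth was recovered from fold and −log10 p as whole pileups (tolerance 0.01). DAY3 and DAY9 pairs were averaged to 1 sample each. Peak counts were tested by the exact Jonckheere-Terpstra permutation test over 8 samples, with Benjamini-Hochberg adjustment over 47481 genes (threshold 0.05), with code tested on simulated data (Python 3.11.15, numpy 2.4.6, pandas 2.3.3, scipy 1.17.1).

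The genes and gene lists were chosen with earlier results of these data known. Named were the 3 protein-coding genes most like each gene by Pearson correlation, up to 4 genes per list with the largest ESC minus MEF difference, elements at a gene start, up to 3 newly open elements per gene with the highest ESC score among those with peaks in both ESC libraries, and up to 2 per gene that were closed in ESC or open at intermediate stages alone. Other elements were named after their values were seen. Alternatives were equal list length, the top 50% of each list, windows of 10 and 100 kb, base pairs under peaks, 10 separate libraries, a replicate block, 50% coverage of an element and leaving out each library.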

Additional observations from a re-analysis of the deposited data

How the results depend on the processing

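No alternative turned the direction of a peak count difference of the 4 genes. Counted as 10 separate libraries, all 4 passed the threshold in the exact permutation test, with differences of 8 peaks for Tfcp2l1, 9.5 for Prdm14, 13 for Nr5a2 and 4.5 for Nr0b1, and 3089 genes were called towards more peaks and 252 towards fewer, against 0 in each direction with 8 samples. With base pairs under peaks, Tfcp2l1 passed (4199 bp), and 499 and 51 genes were called. The number of newly open elements of Nr5a2 moved from 16 to 4 with lists of equal length and to 3 with the top 50% of each list, and its transient elements from 8 to 3 and 1, an alternative chosen after seeing the data. Tfcp2l1 and Prdm14 moved from 9 to 5 each with the top 50%, and Prdm14 to 4 with 10 kb and 17 with 100 kb searched, which hold fewer and more elements by construction. The cause of the other shifts was not tested. Leaving out each library in turn gave differences of 7.5 to 8.5 peaks for Tfcp2l1, 9 to 10 for Prdm14, 10.5 to 15.5 for Nr5a2 and 4 to 5 for Nr0b1, with no gene called, and newly open counts of 9 to 12, 9 to 11, 16 to 24 and 4 to 5 in the same order. Same-numbered libraries did not deviate together in the presence of peaks (correlations of -0.0095 to 0.022 over 10 pairs of stages). This gave no sign of pairing by number. It cannot exclude pairing, since the DAY3 and DAY9 pairs differed by little more than counting noise. With the replicate block over 10 libraries the adjusted exact permutation p-value was 0.0755 for Tfcp2l1, 0.0568 for Prdm14, 0.0888 for Nr5a2 and 0.0655 for Nr0b1, no gene was called, and the mean newly open count of Nr5a2 within a replicate number was 24.5.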
